A study of Mus musculus with 18 samples.

Results

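MHC class II genes encode the proteins that display peptides from ingested material on the cell surface. The 7 genes described here were taken from the deposited gene tables by name, out of 55416 gene identifiers. They are the chain genes H2-Aa, H2-Ab1 and H2-Eb1, the invariant chain gene Cd74, the peptide-exchange genes H2-DMa and H2-DMb1, and the transactivator gene Ciita. All 7 were matched to a single identifier each, and 6 of them had enough reads to be tested. The H2 genes lie on chromosome 17 and Ciita lies on chromosome 16.

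The samples were mouse optic nerve heads, the tissue where retinal axons leave the eye, cut out of sections with a laser and sequenced from full-length cDNA. Mice labelled B6.EDA+/+ were compared with mice labelled C57BL/6J control, each at 12 and 22 months of age. By its usual description the B6.EDA+/+ strain carries a germline allele of fibronectin that always includes the extra domain A exon, so the change is not limited to a cell type. The groups held 5 EDA-labelled and 5 control-labelled libraries at 12 months, and 3 EDA-labelled and 5 control-labelled libraries at 22 months. The series text places the study in glaucoma and in inflammatory and fibrotic change of the optic nerve head. Nothing in the labels says whether each library is a different animal, so the p-values measure the spread between libraries, which may be technical.

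Fibronectin transcripts were examined first because the strain is defined by 1 of their exons. The share of coding Fn1 TPM assigned to transcripts with the extra domain A exon was 0, 12.6 and 0% in the 22-month EDA-labelled libraries and ran from 0 to 58.5% at 12 months. It ran from 0 to 100% in the control-labelled libraries at 22 months and from 0 to 96.2% at 12 months. These estimates rest on 67 to 1485 reads per library and did not follow the labels, so every library is called below by its label only. Library totals ran from 13097498 to 18488733 expected counts, and 9703 to 13048 genes had at least 10 reads. Of the 18 libraries, 2 stood apart over 6499 expressed genes. Replicate 4 of the 12-month EDA-labelled group had a median correlation of 0.51 with the others and replicate 3 of the 22-month EDA-labelled group had 0.75, against 0.81 to 0.87 in the other 16. In 5 libraries Xist, a mark of female cells, had more reads than a set of Y-linked genes together, and 3 of them were EDA-labelled. At 12 months they were replicates 4 and 5 of the EDA-labelled and replicates 1 and 2 of the control-labelled group. At 22 months the only such library was replicate 1 of the EDA-labelled group, which had the highest Cd74, H2-Aa and H2-Ab1 of all. Label and sex mark were therefore not balanced at that age.

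As background, a class II molecule is a pair of an alpha and a beta chain, here H2-Aa with H2-Ab1 for the I-A molecule and H2-Eb1 for the beta chain of I-E. Mice of the C57BL/6 background do not make the I-E alpha chain, so their H2-Eb1 product has no usual partner. The Cd74 product holds new class II molecules together until they reach lysosomes, where cathepsins trim it and the H2-DM dimer swaps the remaining fragment for peptide. CIITA does not bind DNA itself but is recruited by factors sitting on conserved X and Y boxes in front of class II genes. In the optic nerve and brain, class II is known mainly from border macrophages, dendritic cells and activated microglia.

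Promoter windows from RefSeq on build GRCm38.p6 were found for 4 of the 7 genes, H2-Aa, H2-Eb1, H2-DMa and H2-DMb1, in 5 windows. They are shown because 3 of these genes carry in front of their start the paired boxes through which the family is known to be switched on together. Capitals mark AACTGATG, a stretch of the X box region, or TGACGTCA, the cyclic AMP response element, followed by TGATTGG, an extended Y box. All are written 5′ to 3′ along the gene's own strand and end before its start.
H2-Eb1: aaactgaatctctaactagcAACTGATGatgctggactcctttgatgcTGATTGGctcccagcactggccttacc
H2-DMb1: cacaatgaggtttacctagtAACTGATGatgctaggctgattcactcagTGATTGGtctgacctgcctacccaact
H2-Aa: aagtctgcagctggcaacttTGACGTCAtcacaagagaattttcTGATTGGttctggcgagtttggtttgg
The stretches lie at chr17:34305758-34305832 (plus strand) for H2-Eb1, chr17:34153079-34153154 (plus strand) for H2-DMb1 and chr17:34287847-34287917 (minus strand) for H2-Aa.

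In H2-Eb1 and H2-DMb1 the boxes sat at nearly the same places. AACTGATG began 89 bases before the H2-Eb1 start and 92 bases before the H2-DMb1 start. TGATTGG followed after 20 bases in H2-Eb1 and 21 bases in H2-DMb1. In H2-Aa, TGACGTCA began 74 bases before the start and TGATTGG followed after 16 bases. Neither H2-DMa window held any of these 3 motifs in the 250 bases before its start, although 1 of them held the core ATTGG, which lies inside TGATTGG. With both strands searched over all 32851 windows of 300 bases, AACTGATG was found in 0.776%, TGACGTCA in 1.79%, TGATTGG in 7.82% and ATTGG in 37.4%. These motifs were chosen after the sequences had been read, and a match is a description of letters, not of binding. H2-Eb1 and H2-DMb1, which hold the same pair of boxes, were at very different levels.

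Cd74 was the highest member and H2-DMb1 the lowest. Over the 18 libraries the median level, in TPM, a scale corrected for transcript length and library size, was 574 for Cd74, 85.5 for H2-Ab1, 27.8 for H2-Aa, 11.2 for H2-Eb1, 9.43 for H2-DMa, 1.79 for Ciita and 0 for H2-DMb1. By that median Cd74 ranked 144 among all genes. Levels varied widely between libraries of the same label. Cd74 ran from 111 to 1147 TPM in control-labelled and from 258 to 2326 TPM in EDA-labelled libraries, and H2-Ab1 from 24.8 to 204 and from 1 to 354 TPM. In these bulk samples fewer cells of a type and less RNA per cell cannot be told apart.

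**Figure D1:**
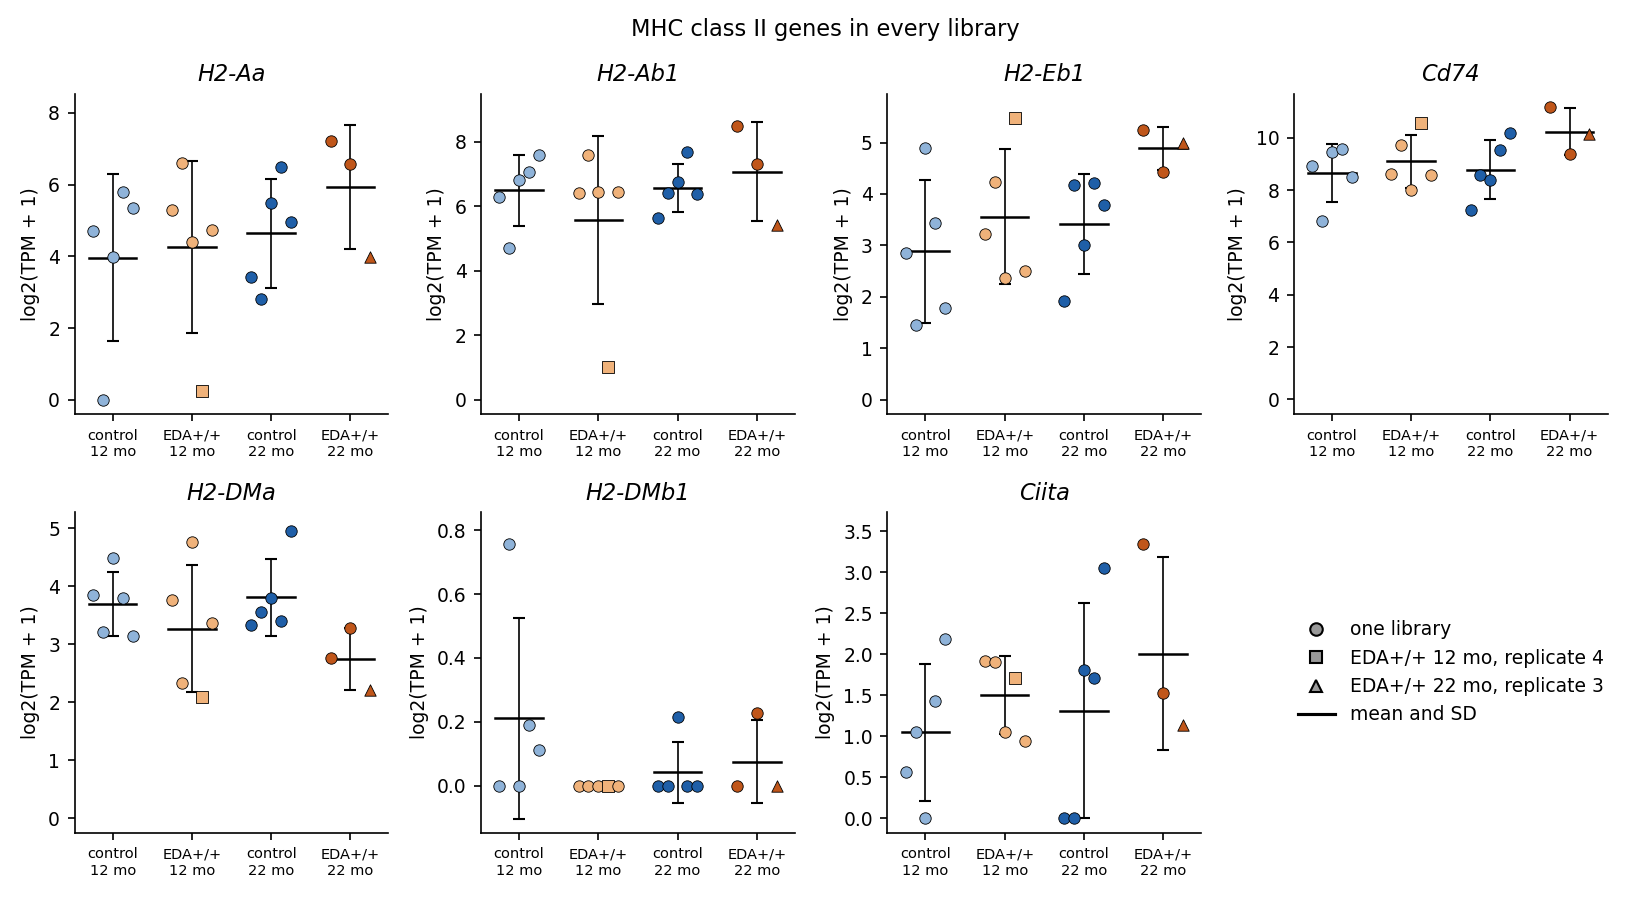
Level of each gene in each library, as log2(TPM + 1), by label and age, with 1 point per library and bars for the mean and SD on that scale. Groups overlap for most genes, the 22-month EDA-labelled points lie above the 22-month control-labelled ones for H2-Eb1 and below them for H2-DMa, and the square marks the library with almost no H2-Aa or H2-Ab1.

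H2-Ab1, the beta chain of I-A, was the most abundant chain gene. In replicate order its level was 77.6, 24.8, 111, 132 and 193 TPM in the 12-month control-labelled libraries and 84.1, 189, 84.8, 1 and 86.2 TPM in the 12-month EDA-labelled ones. At 22 months it was 48.3, 84.6, 107, 204 and 82.4 TPM in control-labelled and 354, 158 and 41.9 TPM in EDA-labelled libraries. The groups overlapped at both ages, and the 22-month EDA-labelled group held both the highest level of its age and the lowest. The means were 108 ± 62.6 (SD, n = 5), 89 ± 66.7 (SD, n = 5), 105 ± 59.2 (SD, n = 5) and 184 ± 158 TPM (SD, n = 3) in the same order.

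H2-Aa, its alpha chain partner, followed much the same libraries. It was 24.9, 0, 14.8, 54.6 and 40.1 TPM in 12-month control-labelled libraries and 38.3, 97, 20.1, 0.18 and 25.8 TPM in 12-month EDA-labelled ones. The 22-month values were 9.78, 6.02, 44.2, 89.8 and 29.8 TPM in control-labelled and 149, 94.9 and 14.7 TPM in EDA-labelled libraries. Replicates 1 and 2 of the 22-month EDA-labelled group were above every control-labelled library of that age, and replicate 3 was below the control-labelled median. The listed 0, in replicate 2 of the 12-month control-labelled group, is a count of 0 in a library where 3 counts would be 0.229 CPM, counts scaled to the library total. That floor covers counting error only, and the same library had 276 reads on H2-Ab1.

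H2-Eb1 was the chain gene whose label groups did not overlap at 22 months. It was 2.77, 17.1, 7.03, 17.6 and 12.7 TPM in control-labelled and 36.9, 20.5 and 31 TPM in EDA-labelled libraries of that age, with every EDA-labelled value above every control-labelled one. At 12 months the levels were 6.25, 1.73, 28.8, 9.84 and 2.42 TPM in control-labelled and 8.31, 17.8, 4.17, 43.8 and 4.64 TPM in EDA-labelled libraries. Those groups overlapped throughout, and the highest value of the series was in replicate 4 of the 12-month EDA-labelled group. The reads behind these levels numbered 17 to 335 per library. H2-Eb1 overlaps a gene model on the opposite strand and the kit does not mark strand, so reads from the 2 strands cannot be told apart there; the overlapping model, Gm20513, is itself listed at 0 in all libraries.

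Cd74, the invariant chain gene, was high in every library. It was 485, 111, 703, 753 and 357 TPM in 12-month control-labelled libraries and 387, 838, 258, 1522 and 377 TPM in 12-month EDA-labelled ones. At 22 months it was 150, 381, 332, 749 and 1147 TPM in control-labelled and 2326, 664 and 1120 TPM in EDA-labelled libraries. All 3 EDA-labelled libraries of 22 months were above the control-labelled median of 381 TPM, but the groups overlapped, since replicates 4 and 5 of the controls reached 749 and 1147 TPM. Group means were 482 ± 262 (SD, n = 5), 676 ± 522 (SD, n = 5), 552 ± 398 (SD, n = 5) and 1370 ± 859 TPM (SD, n = 3), in the order 12-month control-labelled, 12-month EDA-labelled, 22-month control-labelled and 22-month EDA-labelled.

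The peptide-exchange genes did not follow the chains. H2-DMa was 9.05, 10.8, 12.9, 9.52 and 29.9 TPM in 22-month control-labelled libraries and 5.77, 8.71 and 3.6 TPM in EDA-labelled ones, so that each EDA-labelled value was below each control-labelled value. At 12 months it was 13.4, 8.2, 21.3, 12.9 and 7.84 TPM in control-labelled and 12.6, 4.03, 26.3, 3.26 and 9.33 TPM in EDA-labelled libraries, which overlapped. Its 22-month EDA-labelled values rest on 39, 38 and 13 reads, and the start of its gene model overlaps Brd2 on the opposite strand, so reads there cannot be told apart. H2-DMb1, which encodes the partner chain of the DM dimer, had reads in 5 of the 18 libraries, at most 9 in replicate 2 of the 12-month control-labelled group. Its highest level was 0.69 TPM, and it was not tested. In the 13 libraries at 0, the limit that a count of 0 allows, 3 counts, is between 0.162 and 0.225 CPM. H2-DMb1 shares long stretches with its neighbour H2-DMb2, and its value is uncertain where the authors' estimate could split reads between them; H2-DMb2 itself was above 0 in 1 library, at 0.89 TPM.

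Ciita, the master regulator, was low and uneven. Its level was 0.48, 1.08, 0, 1.69 and 3.57 TPM in 12-month control-labelled and 2.77, 2.75, 1.07, 2.28 and 0.92 TPM in 12-month EDA-labelled libraries. The 22-month values were 0, 0, 2.51, 2.27 and 7.27 TPM in control-labelled and 9.17, 1.89 and 1.21 TPM in EDA-labelled libraries. The groups overlapped at both ages, and replicates 1 and 2 of the 22-month control-labelled group had no reads. Those 2 libraries still had Cd74 at 150 and 381 TPM.

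Group means were ordered alike for 3 genes. Cd74, H2-Aa and H2-Eb1 were highest in the 22-month EDA-labelled group, then the 12-month EDA-labelled, 22-month control-labelled and 12-month control-labelled groups. H2-Ab1 had the same group at the top, but the 12-month EDA-labelled group at the bottom. Ciita also had its highest mean in the 22-month EDA-labelled group, at 4.09 ± 4.41 TPM (SD, n = 3), and its lowest in the 12-month control-labelled group. H2-DMa was lowest in the 22-month EDA-labelled group, at 6.03 ± 2.56 TPM (SD, n = 3), against 14.4 ± 8.79 (SD, n = 5) in the 22-month control-labelled group. The second place of the 12-month EDA-labelled group rested on 1 library for each of those 3 genes. Without its replicate 4 its mean was 465 TPM for Cd74 and 8.73 TPM for H2-Eb1, and without its replicate 2 it was 21.1 TPM for H2-Aa, each below both control-labelled groups. For every gene and every pair of neighbours in these orders, the gap between means was smaller than the larger of the 2 SDs.

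The comparison of labels at 22 months asked whether class II genes differ in old animals. The fitted log2 fold change, EDA-labelled minus control-labelled, was 1.50 ± 0.90 (SE) for H2-Eb1, 1.35 ± 0.64 for Cd74, 1.21 ± 1.18 for H2-Aa, 0.68 ± 0.81 for H2-Ab1 and 0.42 ± 1.43 for Ciita. For H2-DMa it was -1.47 ± 0.89. None of the 6 tested members passed an adjusted p of 0.05 in edgeR's quasi-likelihood test, all with adjusted p = 1, nor did any of the 15118 genes (0%). An unadjusted p under 0.05 was found for 599 genes (3.96%) and for 1 of the 6 members. That member was Cd74, with adjusted p = 1 in edgeR's quasi-likelihood test from an unadjusted p of 0.0489. DESeq2 called 35 genes and limma-voom with quality weights 1, none of them a member. The TPM values of the groups did not overlap for 2 of 6 members, H2-Eb1 and H2-DMa, against 2.37% of all tested genes. Of the 6 members 5 had a fold change above 0, with a median of 0.95, against 46% of all genes and a median of -0.07.

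**Figure D2:**
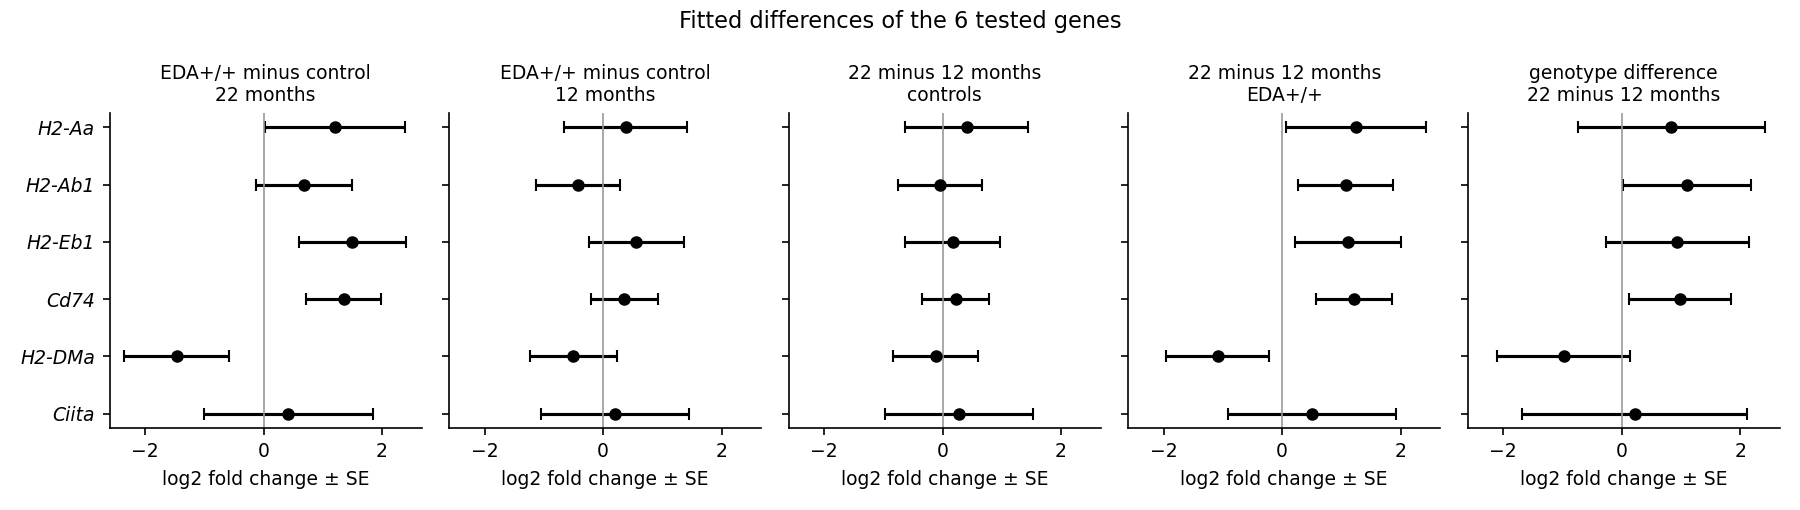
Fitted log2 fold change of the 6 tested genes in each comparison, with points for the estimate and bars for its SE. At 22 months the bars of H2-Eb1 (1.50), Cd74 (1.35) and H2-Aa (1.21) lie to the right of 0 and that of H2-DMa (-1.47) to the left. Those of H2-Ab1 and Ciita cross 0. For age in EDA-labelled libraries only the Ciita bar crosses 0, while at 12 months and for age in controls every bar does. An SE bar clear of 0 is not a test result. None of the 6 genes was called in any comparison, and the label effect was not shown to differ between the ages.

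Single libraries carried several of these values. Without replicate 1 of the 22-month EDA-labelled group, the library with the highest H2-Aa, H2-Ab1 and Cd74 of all, the fold change of H2-Ab1 was -0.06, that of Ciita -0.34 and that of H2-Aa 0.65. Without replicate 5 of the 22-month control-labelled group, which had the most Ciita reads of all, Ciita stood at 1.94. Without replicate 3 of the EDA-labelled group H2-Ab1 stood at 1.09. Cd74 stayed between 1.01 and 1.84, H2-Eb1 between 1.13 and 1.80 and H2-DMa between -1.69 and -1.16 whichever library of the comparison was left out.

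The same comparison at 12 months gave smaller values. The log2 fold change was 0.56 ± 0.80 (SE) for H2-Eb1, 0.38 ± 1.04 for H2-Aa, 0.36 ± 0.57 for Cd74, 0.20 ± 1.25 for Ciita, -0.42 ± 0.71 for H2-Ab1 and -0.50 ± 0.73 for H2-DMa. No member had an unadjusted p under 0.05, against 4.56% of genes, and edgeR's quasi-likelihood test called no gene (0%) after adjustment, with 22 called by DESeq2 and 2 by limma-voom, none of them a member. No member's TPM values separated the groups, against 1.76% of genes. The values for Cd74 and H2-Eb1 rested on replicate 4 of the EDA-labelled group, without which they were -0.22 and -0.25, and that for H2-Aa rested on replicate 2, without which it was -0.50. H2-Ab1 was -0.10 without replicate 4, H2-DMa -1.39 without replicate 3 of that group, and H2-Eb1 1.62 without replicate 3 of the control-labelled group. Here 4 of the 6 members were above 0, with a median of 0.28 against -0.01 for all genes.

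Fitted differences with age in controls ran from -0.12 to 0.41. Between 12 and 22 months the control-labelled libraries differed by 0.41 ± 1.04 (SE) in H2-Aa, 0.28 ± 1.25 in Ciita, 0.22 ± 0.57 in Cd74, 0.17 ± 0.80 in H2-Eb1, -0.04 ± 0.71 in H2-Ab1 and -0.12 ± 0.72 in H2-DMa. Each of these 6 values changed sign when 1 or another library was left out. No member had an unadjusted p under 0.05, against 3.51% of genes, and edgeR's quasi-likelihood test called no gene (0%), DESeq2 23 and limma-voom 0. No member separated the groups, against 0.41% of genes.

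In EDA-labelled libraries 5 of the 6 tested members had a higher fitted level at 22 than at 12 months, and none passed the test. The log2 difference was 1.25 ± 1.18 (SE) for H2-Aa, 1.21 ± 0.64 for Cd74, 1.11 ± 0.90 for H2-Eb1, 1.07 ± 0.80 for H2-Ab1, 0.50 ± 1.42 for Ciita and -1.09 ± 0.87 for H2-DMa. Adjusted p was 0.961 for Cd74 and 1 for the others in edgeR's quasi-likelihood test, which called 0% of genes, while DESeq2 called 43 genes, no member among them, and limma-voom none. At an unadjusted p under 0.05 there were 0 members, against 4.98% of genes, and no member separated the groups, against 3.88%. Of all genes 46.9% were higher. Without replicate 1 of the 22-month group Ciita was -0.26, H2-Ab1 0.32 and H2-Aa 0.68. H2-DMa was -0.20 without replicate 3 of the 12-month group, H2-Eb1 1.92 without its replicate 4, and H2-Aa 2.12 and H2-Ab1 1.61 without its replicate 2. Without replicate 3 of the 22-month group H2-Eb1 was 0.73. This comparison shares its 22-month libraries with the label comparison at that age, so the 2 sets of values are not independent.

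The difference between the label effects at the 2 ages was tested as an interaction. It was 1.11 ± 1.08 (SE) for H2-Ab1, 0.99 ± 0.86 for Cd74, 0.94 ± 1.21 for H2-Eb1, 0.84 ± 1.58 for H2-Aa, 0.22 ± 1.90 for Ciita and -0.98 ± 1.12 for H2-DMa. No member had an unadjusted p under 0.05, against 4.02% of genes, and edgeR's quasi-likelihood test called 0% of genes, DESeq2 37 and limma-voom 1, none of them a member. Single libraries moved these values as well. Without replicate 1 of the 22-month EDA-labelled group H2-Ab1 was 0.36, H2-Aa 0.27, Cd74 0.65 and Ciita -0.54. In the 12-month EDA-labelled group, H2-DMa was -0.09 without replicate 3, Cd74 1.57 and H2-Eb1 1.75 without replicate 4, and H2-Aa 1.71 without replicate 2. H2-Eb1 was -0.06 without replicate 3 of the 12-month control-labelled group. The label effect on class II genes was thus not shown to differ between the ages.

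The members did not move as a single block across libraries. Over all 18 libraries the correlation of log2 CPM was 0.89 between Cd74 and H2-Eb1 and 0.82 between H2-Aa and H2-Ab1, but -0.03 between Cd74 and H2-Ab1 and 0.27 between Cd74 and H2-Aa. By this measure H2-Eb1 was the gene most like Cd74 among all genes with a mean log2 CPM of at least 2, while H2-Ab1 ranked 2749. For the I-A pair, H2-Ab1 ranked 2 in likeness to H2-Aa, but H2-Aa ranked only 583 in likeness to H2-Ab1. Without the 2 libraries that stood apart, the correlation of Cd74 with H2-Ab1 was 0.79, with H2-Aa 0.68 and with H2-Eb1 0.85. The low correlation of Cd74 with the I-A chains was present with those 2 libraries and absent without them. H2-DMa correlated at -0.41 with Cd74 over 18 libraries and -0.17 over 16, and Ciita at 0.31 and 0.29. The libraries share label, age and capture, and these correlations are given as descriptions.

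**Figure D3:**
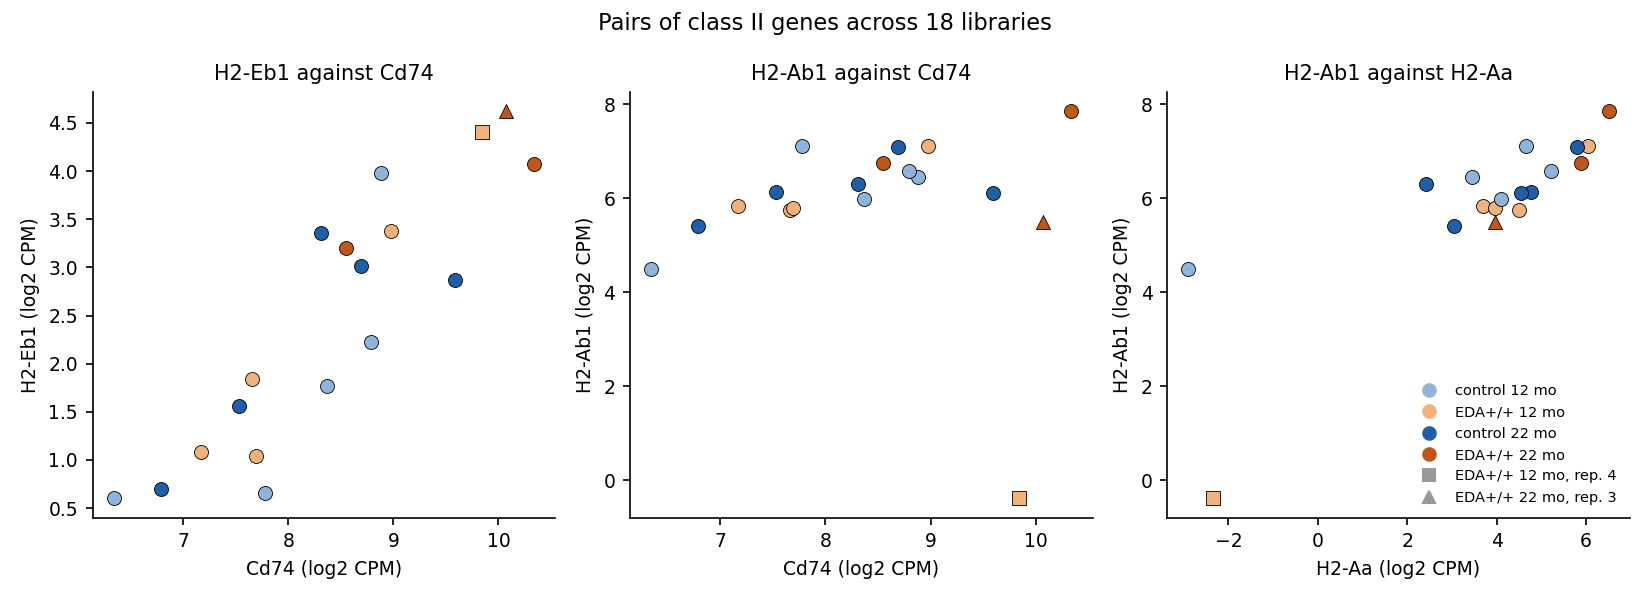
Log2 CPM of 3 pairs of class II genes in 18 libraries, coloured by label and age. Cd74 and H2-Eb1 form 1 cloud (r = 0.89), whereas the square, replicate 4 of the 12-month EDA-labelled group, and the triangle, replicate 3 of the 22-month EDA-labelled group, fall below the other libraries when H2-Ab1 is set against Cd74 (r = -0.03).

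Replicate 4 of the 12-month EDA-labelled group showed the split at its widest. It had 14581 reads on Cd74 and 335 on H2-Eb1, the latter the highest of all, but 10 on H2-Ab1 and 1 on H2-Aa. Its Cd74 level was 1522 times that of H2-Ab1, whereas in the 16 other libraries the ratio ran from 1.85 to 13.9 with a median of 4.46. Replicate 3 of the 22-month EDA-labelled group, at 26.7 times, also lay outside that range. The ratio of Cd74 to H2-Eb1 in the same 2 libraries was 34.8 and 36.1, inside the range of 22.3 to 147 in the others. H2-Aa to H2-Ab1 also stayed inside its range in both. In replicate 4 of the 12-month EDA-labelled group, however, that ratio rested on 1 read of H2-Aa and 10 of H2-Ab1. The pattern was not limited to class II. In replicate 4 of the 12-month EDA-labelled group Ifngr1, a chain of the interferon-gamma receptor, was at 3.55 TPM against 91.9 to 216 in the other 16, and Ctsb, a lysosomal protease, at 74.2 against 266 to 715. In that library Gfap, an astrocyte gene, was at 17692 TPM against 2845 to 7772 and C1qa, a complement gene of microglia, at 513 against 48.1 to 428. Its share of TPM on transcripts annotated with a retained intron was 4.82%, inside the 3.3 to 6.38% of the other 16. The part of these features in the class II values was not tested.

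Transcript estimates differed sharply between members. H2-Aa and H2-Ab1 were assigned almost wholly to coding transcripts. The coding share of H2-Ab1 TPM ran from 95 to 100%, and that of H2-Aa was above 95% in 16 of the 17 libraries with reads, the exception being the library with 1 read. For Cd74 the coding share ran from 50.2 to 63.5% with a mean of 56.3 ± 3.49% (SD, n = 18). The rest fell on 2 short models annotated as retaining an intron. H2-Eb1 was at the other end. Its coding share had a median of 7.28% and was 0 in 7 of 18 libraries, and in the 22-month EDA-labelled libraries, where the gene was high, it was 8.21, 8.09 and 9.29%. Most of the H2-Eb1 signal in those libraries thus sat on models not annotated as coding. H2-DMa was spread, from 0 to 70.5% coding, with a median of 25.3%. By expected counts in place of TPM the medians were 14.8% for H2-Eb1, 51.9% for H2-DMa and 72.5% for Cd74. The coding share was examined for the H2 genes after the values had been seen. RSEM divides reads among overlapping models by estimation, so these shares carry an error that the files do not give.

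**Figure D4:**
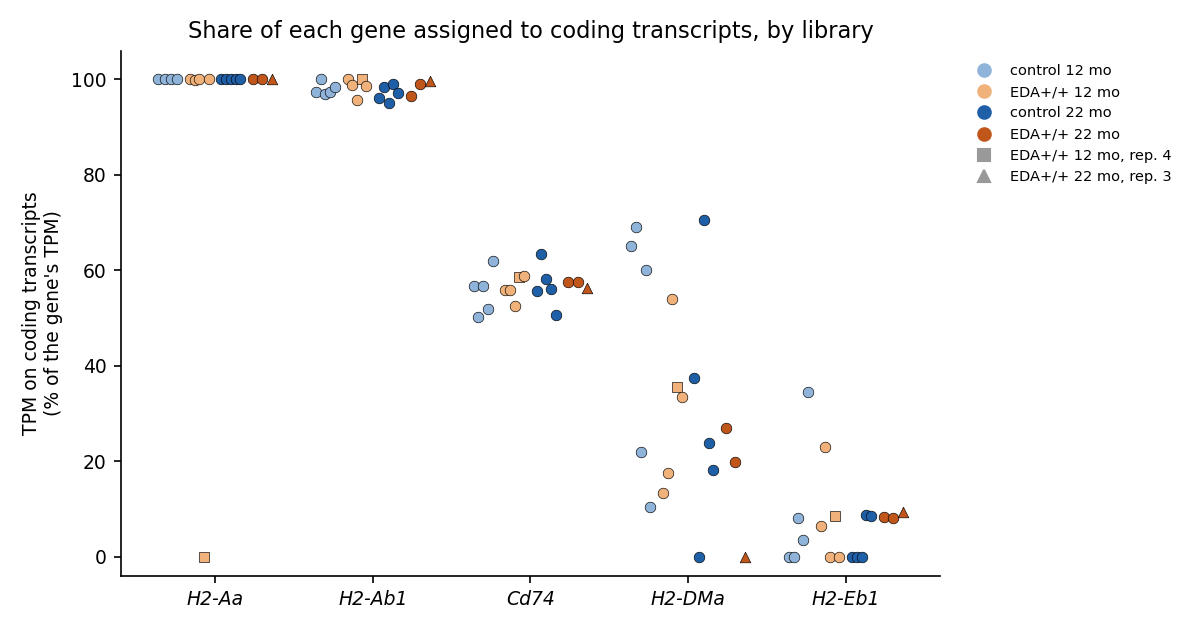
Percent of each gene's TPM assigned to coding transcripts in each library, coloured by label and age. H2-Aa and H2-Ab1 lie at 95% or more except for 1 library with a single H2-Aa read, Cd74 lies between 50.2 and 63.5%, and H2-Eb1 lies at or below 34.4%.

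Cd74 makes a short and a long protein, the long one through an additional exon of 192 bases that encodes a thyroglobulin-type domain known to inhibit cathepsins. Of its 3 coding models 2 hold that exon. They took 49, 47.5 and 59.9% of coding Cd74 TPM in the 22-month EDA-labelled libraries and between 37.6 and 58.3% in the control-labelled libraries of that age. At 12 months the share ran from 37.1 to 52.2% in EDA-labelled and from 42.4 to 52.4% in control-labelled libraries. The groups overlapped at both ages, with an overall mean of 46.9 ± 6.19% (SD, n = 18). No test was made of this share.

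Ciita has alternative starts, known to be used by different cells, the most upstream in dendritic cells and macrophages and the most downstream after interferon-gamma. Its 8 annotated transcripts fall into an upstream cluster of 3, a middle cluster of 2 beginning 8119 bases later and a downstream cluster of 3 beginning 9687 bases later. The annotation does not name these clusters. In the 12-month control-labelled libraries with reads, the middle cluster took 100, 100, 92.9 and 100% of Ciita TPM. In the 22-month EDA-labelled libraries it took 16.6, 66.1 and 3.31%, the upstream cluster 44.5, 33.9 and 21.5% and the downstream cluster 38.9, 0 and 75.2%. The 12-month EDA-labelled libraries had 80.2, 76.7, 71, 59.6 and 48.9% in the middle cluster, which overlaps the 22-month EDA-labelled values, and the 3 22-month control-labelled libraries with reads had 32.8, 58.6 and 40.3%. By expected counts in place of TPM the shares differed. The middle cluster then took 32.4, 73.8 and 5.43% in the 22-month EDA-labelled and 75.5, 86.1 and 53.1% in the 22-month control-labelled libraries, whose mean of 71.6% was near the 76% of the 12-month EDA-labelled group. The downstream cluster in replicate 1 of the 22-month EDA-labelled group was then 6.99%. All 4 of the 12-month control-labelled values were above every value of the other groups on both scales. They rest on 33 to 214 reads per library on the whole gene, only some of which tell the starts apart, and no test was made. How often the transcript shares of other genes set a group apart in this way is not given. Whether the separation is unusual therefore cannot be judged.

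The partners of the class II genes were read as a list of 39, all found in the files and 31 of them tested. They comprise paralogues, promoter-binding factors, the interferon-gamma pathway, lysosomal enzymes, turnover factors and costimulators. None passed an adjusted p of 0.05 in edgeR's quasi-likelihood test in any comparison. At 22 months 15 of 31 were higher in EDA-labelled libraries, with a median log2 fold change of -0.01, and at 12 months 16 of 31, with a median of 0.08. No partner had an unadjusted p under 0.05 in either label comparison.

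By role, the paralogues H2-Ob, H2-Eb2 and the I-E alpha pseudogene H2-Ea-ps were at 0 in all 18 libraries, and H2-Oa was above 0 in 2. All 7 promoter-binding factors were tested, and 2 were higher at 22 months in EDA-labelled libraries. Of these Rfx5, a subunit of the X box complex, stood at 1.00 ± 0.71 (SE, log2). Ifng, the cytokine itself, was at 0 in all 18 libraries, which allows a level of up to 0.162 to 0.229 CPM. Of the 10 tested genes of its signal 7 were higher in EDA-labelled libraries at 22 months, with a median of 0.27, and 3 at 12 months, with a median of -0.42. Of the 6 tested lysosomal genes 1 was higher in EDA-labelled libraries at 22 months, and Ctss, the cathepsin that makes the last cut in the invariant chain, stood at -0.73 ± 0.56. March8, a ligase that removes class II from the surface, stood at -0.56 ± 0.40. All had adjusted p = 1 in edgeR's quasi-likelihood test.

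Between ages no partner had an adjusted p under 0.05. Partners with an unadjusted p under 0.05 included 3 that are named here after their values were seen. In EDA-labelled libraries the difference between 22 and 12 months was 1.82 ± 0.80 (SE, log2) for Irf1, an interferon-induced transcription factor, and -0.99 ± 0.40 for March8, each with adjusted p = 0.961 in edgeR's quasi-likelihood test. In control-labelled libraries it was 3.16 ± 1.45 for Cd274, an inhibitory ligand, with adjusted p = 1 in the same test.

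Markers of the cells that could carry class II differed in how far they were detected. The B cell markers Ms4a1, Cd79a, Cd79b and Igkc were at 0 in every library, whereas Ighm was above 0 in 12 of 18, up to 12.7 TPM, and Pax5 in 3, up to 4.57 TPM. The dendritic cell markers Cd209a, Ccr7 and Clec10a and the border macrophage markers Pf4 and Folr2 were also at 0 throughout. All 15 microglial markers were tested. Their summed level ran from 972 to 1738 TPM in the 22-month EDA-labelled, 819 to 2599 in the 22-month control-labelled, 941 to 2267 in the 12-month EDA-labelled and 884 to 1326 in the 12-month control-labelled libraries. At 22 months 7 of the 15 were higher in EDA-labelled libraries, with a median of -0.33, so the summed level and the count did not separate the labels. The 8 border macrophage markers together reached 10.2 TPM at most, in replicate 1 of the 22-month EDA-labelled group, which also had the highest Cd74. All 3 of them that were tested had higher fitted levels in EDA-labelled libraries at 22 months, with a median log2 fold change of 0.78. In edgeR's quasi-likelihood test 1 had an unadjusted p under 0.05 and none an adjusted one. That marker was F13a1, at 4.02 TPM in replicate 1 of the EDA-labelled group and 0 in every other library of that age. Ms4a7 was 0, 2.17 and 0 TPM in these EDA-labelled libraries against 0 to 2.57 in control-labelled ones. Mrc1 was 5.95, 3.04 and 0 TPM against 1.72 to 3.4.

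The 9 dendritic cell markers summed to 22.9 to 169 TPM in the 22-month EDA-labelled and 12.7 to 100 in the control-labelled libraries of that age, and most of it was Flt3, a growth factor receptor gene. Flt3 was at 169 and 78.6 TPM in the 2 libraries that stood apart and correlated with Cd74 at 0.75 and with H2-Ab1 at -0.11 over 18 libraries. Pan-leukocyte markers summed to 362 to 684 TPM at 22 months in EDA-labelled and 271 to 1040 in control-labelled libraries. Among these Tyrobp, an adaptor of microglial receptors, was 1.83 ± 0.83 (SE, log2) at 22 months, with adjusted p = 1 in edgeR's quasi-likelihood test, and reached 272 TPM in replicate 3 of the EDA-labelled group. T cell markers summed to 5.17 to 53.9 TPM over all libraries. Most of these lists were not raised with the label at 22 months. Higher in EDA-labelled libraries were 1 of 4 tested dendritic cell markers (median log2 fold change -0.26) and 3 of 5 pan-leukocyte markers (0.34). So were 1 of 5 T cell markers (-1.04), 0 of 3 monocyte and neutrophil markers (-4.4) and the 1 tested B cell marker (0.9). The median of -4.4 is the value of Ly6c2, with an SE of 2.44, and rests on very low levels. Ly6c2 was 0.04, 0 and 0 TPM in the 22-month EDA-labelled and 1.68, 3.45, 3.69, 0 and 0 TPM in the control-labelled libraries. Skeletal muscle markers reached 270 TPM in replicate 1 of the 22-month EDA-labelled group, the library with the highest Cd74, against at most 2.62 in the other groups. Photoreceptor markers reached 4470 TPM in 1 control-labelled library of 22 months. The part of these markers in the class II values was not tested.

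The genes most like the 4 abundant members, by mean correlation over 18 libraries among 7190 genes, were Taz (0.57), Zfp628 (0.56), Gal3st4 (0.53), Ankrd42 (0.52) and Tmem143 (0.50). Without the 2 libraries that stood apart their mean correlations were 0.77, 0.68, 0.71, 0.62 and 0.61.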

How the data were processed

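RNA from 18 laser-captured mouse optic nerve heads had been sequenced as paired reads; per the labels' protocols the authors aligned them with STAR and estimated levels with RSEM, and per the submitters' processing notes the build was GRCm39. The authors deposited expected counts, estimates that need not be whole (3.59% were not), and TPM, per gene and per transcript. Symbols came from GENCODE annotation for 52083 of 55416 identifiers. Expected counts were rounded and fitted in edgeR 4.0.16 (R 4.3.3) with default filtering on low counts, TMM scaling, 4 group means over all 18 libraries, robust quasi-likelihood tests of 5 contrasts and Benjamini-Hochberg adjustment over 15118 genes, with a threshold of 0.05. Log2 CPM used a prior count of 2. The fit was tested on data simulated from the means and spread of these libraries. At the same threshold it found 20.2% of 4-fold and 47.3% of 8-fold changes for the label at 22 months. At 12 months it found 34.9 and 59.3%, so a change of that size could well be missed. Alternatives used DESeq2 1.42.0, limma 3.58.1, other scaling and filters, a Xist covariate and left-out libraries. Replicates within groups differed by more than counting noise (chi-square per degree of freedom of 42.8 or more).

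The members and lists were chosen with earlier results of these data known. Named genes were all 7 members, up to 3 genes of each list with the smallest unadjusted p in the label comparisons, the 5 genes most like the 4 abundant members, and genes describing libraries that stood apart. Transcript shares were computed from transcript TPM, and motifs by exact match. Some genes of the lists are not reported here by name.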

Additional observations from a re-analysis of the deposited data

Results flagged for a closer look

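Within groups of 5, a library was set aside for a closer look where its gap to the nearest other library exceeded 0.71 of the group's range. This happened for 9 of the 39 sets of values examined. Chance alone gives about 1 in 20 for independent sets. These sets share genes and libraries, so that rate is only a guide.

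Replicate 4 of the 12-month EDA-labelled group accounted for 5 of them. Its log2 CPM was -2.35 for H2-Aa, against 3.69 to 6.04 in the other 4 libraries, and -0.39 for H2-Ab1, against 5.75 to 7.11. Its log2 TPM ratio to Cd74 was -13.05 for H2-Aa and -10.57 for H2-Ab1, against -3.87 to -3.11 and -2.20 to -1.61. Its log2 ratio of H2-Eb1 to H2-Ab1 was 5.45, against -4.35 to -3.34.

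In the 12-month control-labelled group, replicate 2 had H2-Aa at -2.90 log2 CPM, the value given to a count of 0, against 3.44 to 5.21 in the others. Replicate 5 had H2-DMa at 0.73 log2 CPM against 2.60 to 3.21, and its log2 ratio of H2-Ab1 to Cd74 was -0.89 against -2.66 to -2.17. Replicate 5 of the 22-month control-labelled group had that ratio at -3.80, against -2.17 to -1.63 in the other 4.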

How the results depend on the processing

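No member was called under any setting that was run, and the 26 settings left the members' adjusted p above 0.05 throughout. The number of genes called was 0 in edgeR for all 5 comparisons. DESeq2 called 35 and 22 for the label at 22 and 12 months, 23 and 43 for age in control-labelled and EDA-labelled libraries and 37 for the interaction, and limma-voom with quality weights called 1, 2, 0, 0 and 1. Leaving out single libraries gave 0 to 1 genes for the label at 12 months, and leaving out both libraries that stood apart, chosen after seeing the data, gave 1.

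Of 234 member fold changes under the other settings, 8 changed sign. With limma-voom these were H2-Ab1 at 12 months (0.01), H2-Ab1 (0.29) and Ciita (-1.45) for age in controls, and H2-Aa in the interaction (-0.65). With limma on log2(TPM + 1) they were H2-Ab1 (0.08) and H2-DMa (0.11) for age in controls. Without both libraries that stood apart they were Cd74 (-0.21) and H2-Eb1 (-0.24) at 12 months. Larger moves kept their sign: with limma-voom Ciita went from 0.42 to 2.86 at 22 months and from 0.22 to 2.12 in the interaction, and H2-Aa from 0.38 to 2.04 at 12 months and from 0.41 to 2.03 for age in controls. With the Xist covariate H2-Aa went from 1.21 to 1.88 and H2-Ab1 from 0.68 to 1.15 at 22 months. The cause was not tested.

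Leaving out each library in turn changed the sign of 27 of 324 values. For the label at 22 months the range was -0.06 to 1.09 for H2-Ab1 and -0.34 to 1.94 for Ciita. At 12 months it was -0.22 to 0.63 for Cd74, -0.50 to 0.82 for H2-Aa, -0.25 to 1.62 for H2-Eb1 and -0.11 to 0.91 for Ciita. For age in controls it was -0.27 to 0.45 for Cd74, -0.17 to 0.85 for H2-Aa, -0.32 to 0.24 for H2-Ab1, -0.12 to 1.14 for H2-Eb1, -0.43 to 0.07 for H2-DMa and -1.24 to 0.99 for Ciita. For age in EDA-labelled libraries it was -0.26 to 0.83 for Ciita, and for the interaction -0.06 to 1.75 for H2-Eb1 and -0.54 to 1.74 for Ciita. Mean TPM of each member in each group moved by less than 1 SD when TPM was rescaled without the identifier that took 3.26 to 32.8% of counts. Of 20 transcript shares 5 moved by more than 1 SD when expected counts replaced TPM; the coding share of Cd74 in the 22-month EDA-labelled group was 57.1% of TPM and 73.1% of expected counts. With 3 libraries in that group, precision was limited for all members, and for the low ones also by reads, as few as 13 on H2-DMa.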
